A study of Mus musculus with 4 samples.

Results

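The genes described here are 9 genes of bone mineralisation, Spp1, Ibsp, Dmp1, Alpl, Bglap, Phex, Smpd3, Ifitm5 and Sp7, out of 33456 gene entries in single-cell count tables of the mouse embryonic hindlimb. They were listed by name and then followed by stage and by cell. Each was read in the cells with at least 50 unique molecular identifiers (UMIs, tags that count captured transcripts once each) of Spp1, and outside those cells beside endothelial cells, whose UMIs of a bone gene serve as a measure of free RNA in the droplets. The tissue came from C57BL/6 embryos of 4 stages, from E11.5 over E13.5 and E15.5 up to E18.5, which the labels tie to the limb bud, cartilage condensation, joint cavitation and joint morphogenesis; no genotype or treatment is named. Each stage is 1 library of pooled hindlimb cells of 1 litter, released with collagenase and pronase, frozen, thawed and depleted of dead cells, and a cell type lost in these steps would be missing. After filtering, 2619, 2813, 2591 and 1900 cells remained in stage order, and a cell held 8909, 10265, 9934 and 6959.5 UMIs in the median. As each stage has a single library, differences between stages have no replicate check and were not tested, and every interval in parentheses is an exact 95% interval that covers counting error only. UMIs of the same cell are not independent, so an interval is too narrow where a few cells supply most of a gene's UMIs.

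Bone and hypertrophic cartilage mineralise when calcium phosphate is deposited in a collagen matrix. Osteopontin (Spp1), bone sialoprotein (Ibsp) and dentin matrix protein 1 (Dmp1) are acidic, secreted phosphoproteins of a shared family that bind mineral and, through an RGD sequence, integrins; osteocalcin (Bglap) is a calcium-binding protein of mature osteoblasts. Tissue-nonspecific alkaline phosphatase (Alpl) removes the mineralisation inhibitor pyrophosphate, Phex is a membrane peptidase whose loss causes hypophosphataemic rickets, and Smpd3 encodes neutral sphingomyelinase 2, which skeletal mineralisation needs. Ifitm5 is an osteoblast membrane protein mutated in osteogenesis imperfecta type V, and Sp7 (osterix) is the transcription factor required for osteoblast formation. Late hypertrophic chondrocytes, which lie next to forming bone, also make several of these products.

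In the mm10 build (GENCODE vM21) all 9 are annotated as protein-coding. Dmp1 (chr5:104202613-104214102), Ibsp (chr5:104299171-104311469) and Spp1 (chr5:104435118-104441050) lie in that order on the plus strand of the same stretch of chromosome 5. The others are scattered: Alpl at chr4:137741733-137796384, Bglap at chr3:88383501-88384464, Phex at chrX:157162075-157415312, Smpd3 at chr8:106252548-106337988, Ifitm5 at chr7:140948958-140950291 and Sp7 at chr15:102356606-102367182, all on the minus strand. Bglap has the near-identical copies Bglap2 (chr3:88377736-88378699) and Bglap3 (chr3:88368616-88372743) beside it, so how the authors' counting divided reads among these 3 genes makes each of their values uncertain. The 250 bases upstream of an annotated start are shown for the 4 matrix proteins among the 9, Spp1, Ibsp, Dmp1 and Bglap. The sequences are as given by RefSeq for GRCm38.p6, 5′ to 3′ on the gene's strand. Capitals mark a RUNX core (TGTGGT, or ACCACA on the other strand) or a TATA box (TATAAA, or TTTATA on the other strand); positions count backwards from the base before the start.
Spp1: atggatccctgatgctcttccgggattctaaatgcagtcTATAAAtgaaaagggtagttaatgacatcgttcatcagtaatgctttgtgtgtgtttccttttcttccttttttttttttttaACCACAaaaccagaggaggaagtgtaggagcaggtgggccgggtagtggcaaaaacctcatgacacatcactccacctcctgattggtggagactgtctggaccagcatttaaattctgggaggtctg
Ibsp: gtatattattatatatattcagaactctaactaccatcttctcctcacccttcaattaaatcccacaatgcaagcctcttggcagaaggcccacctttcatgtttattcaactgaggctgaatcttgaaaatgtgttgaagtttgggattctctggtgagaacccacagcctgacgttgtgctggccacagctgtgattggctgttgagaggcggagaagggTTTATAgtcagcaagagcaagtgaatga
Dmp1: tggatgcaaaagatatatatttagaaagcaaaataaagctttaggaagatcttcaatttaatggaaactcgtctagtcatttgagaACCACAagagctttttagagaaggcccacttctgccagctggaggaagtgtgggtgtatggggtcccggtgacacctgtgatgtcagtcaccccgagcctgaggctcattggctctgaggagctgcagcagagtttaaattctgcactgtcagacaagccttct
Bglap: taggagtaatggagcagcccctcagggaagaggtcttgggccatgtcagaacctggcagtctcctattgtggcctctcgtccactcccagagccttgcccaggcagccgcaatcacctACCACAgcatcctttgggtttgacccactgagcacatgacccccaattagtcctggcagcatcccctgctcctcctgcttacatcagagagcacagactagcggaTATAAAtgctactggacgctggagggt
These windows are chr5:104434861-104435110 for Spp1, chr5:104299037-104299286 for Ibsp, chr5:104202367-104202616 for Dmp1 (the start nearest the annotated gene) and chr3:88384467-88384716 for Bglap. The Spp1 window held a RUNX core starting at position -128 and a TATA box at -211, while the other listed start of Spp1 (chr5:104435942-104436191) had neither. The Bglap window held a RUNX core at -132 and a TATA box at -27. The Ibsp window held a TATA box at -28 and no RUNX core, and the Dmp1 window a RUNX core at -164 and no TATA box; the other listed start of Dmp1 (chr5:104197325-104197574) had neither. A RUNX core occurred in 14.05% and a TATA box in 12.4% of 32851 promoters of the same length, on either strand, and an AP-1 site (TGANTCA, found in 6.75% of them) in none of the 10 windows of the 7 genes that had an entry. These are letter matches only.

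Some cell barcodes occurred in more than 1 library: 8 to 15 for each pair of libraries, 69 in all. A pair of them bears on the genes here. The only E11.5 cell with at least 50 Spp1 UMIs, which clustered with epithelium-like cells and held 63 Spp1 UMIs, carried the same barcode as an E18.5 cell with 1091 Spp1, 90 Ibsp, 90 Dmp1 and 99 Bglap UMIs. An E11.5 limb bud mesenchyme-like cell with 9 Spp1 and 2 Ibsp UMIs shared its barcode with an E15.5 hypertrophic-like cell of 941 Spp1 and 62 Ibsp UMIs. Without shared barcodes E11.5 had 0 of its 4 Ibsp UMIs, 0 of its 2 Phex UMIs, 1 of its 4 Dmp1 UMIs and 273 of its 355 Spp1 UMIs. The levels, ratios and E18.5 shares that these cells bear on most are given with and without them.

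Spp1 was present at a low level at the early stages and by far highest at E15.5. Its UMI count was 355, 274, 30085 and 2975 in stage order, which is 13.3 (12.0 to 14.8), 7.81 (6.91 to 8.79), 1016 (1005 to 1028) and 202 (195 to 210) CPM (UMIs divided by the library total without globin genes and scaled to 1000000). Ibsp was also highest at E15.5, with 4, 186, 2438 and 99 UMIs, or 0.150, 5.30, 82.3 and 6.73 CPM. Without shared barcodes Spp1 stood at 129.97 CPM at E18.5, and Ibsp had 9 UMIs there (0.622 CPM), below its E13.5 level. Of the 99 Ibsp UMIs of that library, 90 lay in 1 cell with such a barcode. Dmp1 was close to absent before E15.5, with 4, 4, 125 and 120 UMIs in stage order (0.150, 0.114, 4.22 and 8.15 CPM). The same E18.5 cell held 90 of the 120, and without shared barcodes 30 remained (2.07 CPM). Bglap reached a level far above the rest only in the last library, with 5, 8, 19 and 110 UMIs (0.188, 0.228, 0.642 and 7.47 CPM). Of those 110 UMIs, 99 lay in 1 cell, which has a shared barcode, and 11 remained without it.

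Smpd3 and Ifitm5 had their highest level at E13.5. Smpd3 had 8, 2835, 1785 and 174 UMIs in stage order (0.301, 80.8, 60.3 and 11.8 CPM). Ifitm5 was counted 26, 390, 197 and 59 times (0.977, 11.1, 6.65 and 4.01 CPM). Sp7 was level over the middle stages, with 29, 434, 365 and 68 UMIs (1.09, 12.4, 12.3 and 4.62 CPM). Alpl had its lowest value at E11.5 and its highest at E18.5, with 61, 171, 181 and 115 UMIs (2.29, 4.87, 6.11 and 7.81 CPM); its intervals at E15.5 (5.26 to 7.07) and E18.5 (6.45 to 9.38) overlapped. Phex was sparse throughout, with 2, 12, 51 and 14 UMIs (0.0752, 0.342, 1.72 and 0.951 CPM). In these pooled tissues fewer cells of a type and less RNA per cell cannot be told apart at this level.

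**Figure D1:**
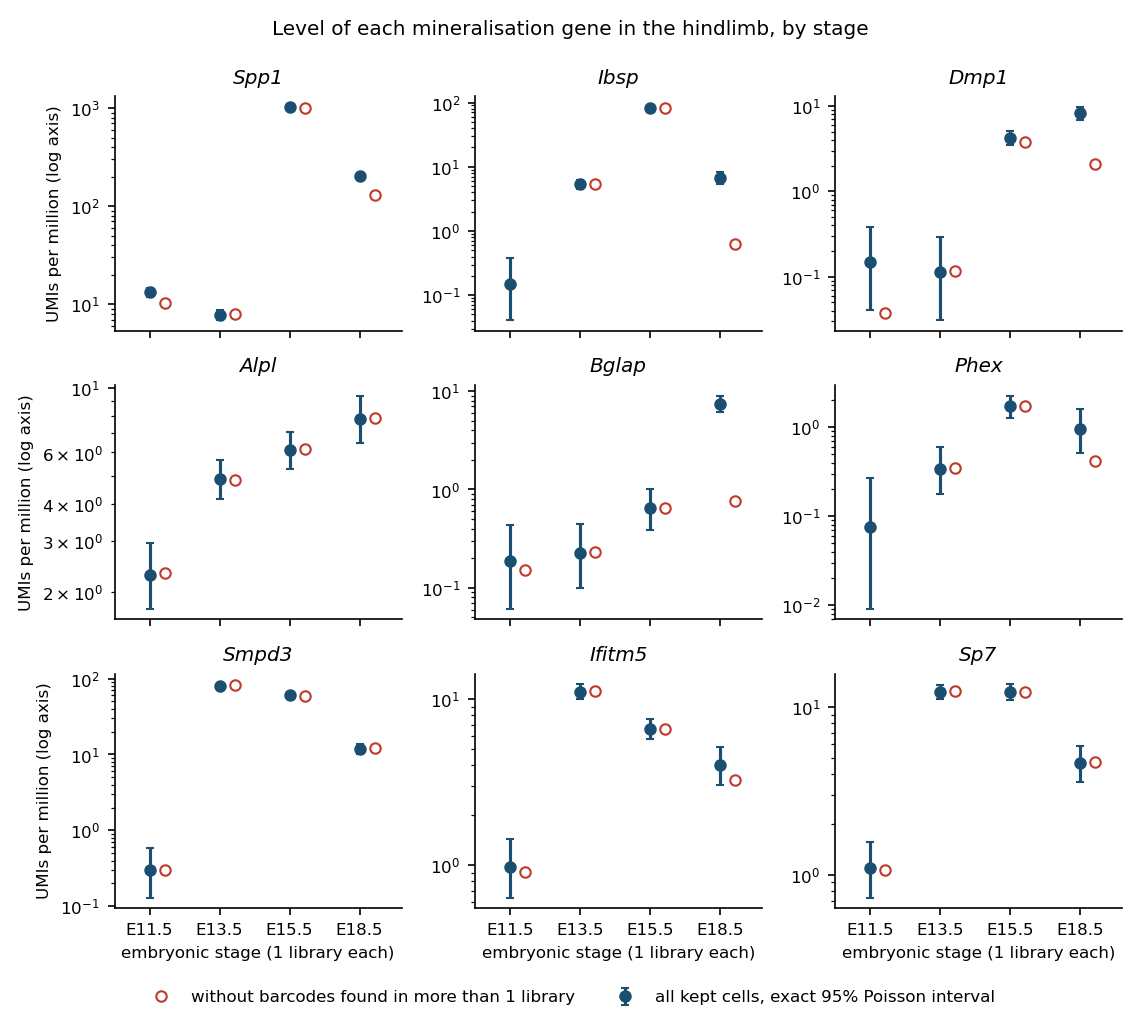
Level of each gene in CPM (log axes, scaled per gene) at the 4 stages; filled points are all kept cells of a library with exact 95% Poisson intervals, open points leave out barcodes found in more than 1 library (a level of 0 is not drawn). Spp1 stands at 1016 at E15.5 against 7.81 to 202 at the other stages, and the open points fall away from the filled ones for Ibsp, Dmp1, Bglap and Phex at E18.5.

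Between successive libraries a gene was called when its CPM ratio was at least 2 in either direction, its whole interval lay on the same side of 1 and the pair held at least 20 UMIs. From E11.5 to E13.5, 5 of the 6 genes with enough UMIs were called higher, against 12.8% of all genes tested, and 0 lower, against 26.1%. Smpd3 was 269-fold (136 to 623), Ibsp 35.3-fold (13.5 to 131), Ifitm5 11.4-fold (7.64 to 17.6), Sp7 11.3-fold (7.79 to 17.1) and Alpl 2.13-fold (1.58 to 2.90) higher. Relative to the median gene, which was lower by 0.55 on the log2 scale at E13.5, the same calls were made, beside 19.5% of genes higher and 9.53% lower. Spp1 was 1.71-fold lower and not called, but 2.62-fold lower and called when the single cell of at least 50 Spp1 UMIs in each library was left out. The cell left out at E11.5 has a shared barcode. All 4 Ibsp UMIs of E11.5 also lay in cells with shared barcodes; without these Ibsp had 0 UMIs at E11.5 and 185 at E13.5, at least 46.8-fold higher than a floor of 3 UMIs in the E11.5 library gives.

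From E13.5 to E15.5, 5 of 9 were called higher and 0 lower, beside 3.85% and 0.976% of all genes. Spp1 was 130-fold (116 to 147), Dmp1 37.0-fold (14.1 to 138), Ibsp 15.5-fold (13.4 to 18.1), Phex 5.04-fold (2.65 to 10.4) and Bglap 2.81-fold (1.18 to 7.43) higher. The Bglap call rests on 1 cell with 11 of the 19 UMIs, without which the ratio was 1.35. Alpl (1.25), Sp7 (0.997), Smpd3 (0.746) and Ifitm5 (0.599) stayed below the size of a call. Relative to the median gene the same number was called, beside 4.12% of genes higher. Leaving out the cells of at least 50 Spp1 UMIs left 2 higher, Spp1 at 10.7-fold (9.04 to 12.8) and Ibsp at 3.68-fold (3.08 to 4.42), beside 3.56% of genes, and Ifitm5 was then 2.15-fold lower and called, beside 0.96%. The Spp1 level left at E15.5, 45.0 CPM, lay within the interval of endothelium-like cells (36.4, 26.4 to 48.8), which measures free RNA, and the limit itself is set on Spp1, so its ratio there is a description only. Dmp1 (2.74), Phex (1.73) and Bglap (1.07) were then not called.

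From E15.5 to E18.5, 4 of 9 were called lower, beside 8.2% of all genes, and 1 higher, beside 11.7%. Ibsp was 12.2-fold (10.0 to 15.1), Smpd3 5.10-fold (4.36 to 5.99), Spp1 5.03-fold (4.84 to 5.22) and Sp7 2.67-fold (2.06 to 3.51) lower, and Bglap was 11.6-fold (7.12 to 20.1) higher. Without barcodes shared between libraries the Bglap ratio was 1.17 and not called, so this rise rests on the same lone cell. Dmp1 was 1.93-fold (1.49 to 2.50) higher and not called; relative to the median gene it reached 2.13 and was called, beside 13.6% of genes higher and 6.37% lower, but without shared barcodes it had 30 of its 120 UMIs at E18.5 and was 1.84-fold lower, and not called. Without shared barcodes 6 were called lower, Phex (ratio 0.242) and Ifitm5 (0.491) joining the other 4, and 0 higher; Ibsp was then 131-fold and Spp1 7.69-fold lower. Without the cells of at least 50 Spp1 UMIs, Dmp1 was 5.88-fold higher and the only gene called higher, beside 11.9% of genes. Its 27 E18.5 UMIs there lay in muscle-like (12) and pericyte and smooth muscle-like cells (15). These classes numbered 427 and 341 cells at E18.5 against 134 and 13 at E15.5, and the part of this in the ratio was not tested. Ibsp, Smpd3, Spp1 and Sp7 were called lower, beside 8.11%.

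At E15.5 there were 62 cells with at least 50 Spp1 UMIs, against 1 in each earlier library and 3 in the last. The nearest E15.5 cells inside the limit held 52, 61 and 73 Spp1 UMIs, and the nearest outside held 35, 33 and 30, so few cells lay close to it. The 62 cells made up 2.39% (1.84 to 3.06) of the E15.5 cells and 2.80% of their UMIs, with a median depth of 13062.5 UMIs. Of these, 49 belonged to cluster 26, led by Mmp13 and Ffar4, and 12 to cluster 22, led by the chondrocyte hypertrophy genes Ihh, Panx3 and Col10a1. Both clusters were named hypertrophic chondrocyte-like with the 9 genes left out of the clustering. The last cell lay in unnamed cluster 14.

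Marker genes other than Spp1 took no part in choosing these cells. All 7 hypertrophic markers were at least 2-fold higher in CPM in the 62 cells than in the other E15.5 cells, with Col10a1 in 61 and Mmp13 in 51 of 62. None of 12 chondrocyte markers was, though Col2a1 had a UMI in all 62. Of 10 osteoblast markers 7 were at least 2-fold higher, among them Runx2 (in 53 cells) and Dlx5 (39), while Col1a1 was in 31 of 62 against 52.2% of the other cells, and Bglap2 in 2. Mmp9, a gelatinase on the osteoclast list, had 328 UMIs in 33 cells, but 4 of the 8 osteoclast markers were at 0, and 5 of 10 macrophage markers were at 0. No cluster of the 4 libraries together met the rule for an osteoblast-like name.

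In the 62 cells Spp1 ranged from 52 to 1487 UMIs with a median of 381.5, and held 95.7% of the E15.5 Spp1 UMIs, which is how the cells were chosen. Of the other 8 genes 4 also had at least 50% of their E15.5 UMIs in these cells. Dmp1 had 116 of 125 UMIs there (92.8%, 86.8 to 96.7), Ibsp 1946 of 2438 (79.8%, 78.2 to 81.4), Phex 34 of 51 (66.7%, 52.1 to 79.2) and Bglap 12 of 19 (63.2%, 38.4 to 83.7), 11 of them in 1 cell. Over 13952 genes with at least 20 UMIs the median share was 2.32%, and 42 genes (0.301%) reached 50%, among them Dmp1, Ibsp and Phex, beside Spp1, which the choice of cells puts there. The remaining genes lay lower, Alpl at 26.5% (20.2 to 33.6), Ifitm5 at 24.9% (19.0 to 31.5, with 40 of 49 UMIs in 1 cell), Sp7 at 16.7% (13.03 to 20.9) and Smpd3 at 5.32% (4.33 to 6.47). At E18.5 the 3 cells above the limit held 93.4% of Spp1, 92.9% of Ibsp, 77.5% of Dmp1 and 94.5% of Bglap UMIs, where 0.0467% of genes reached 50%. The Spp1 share again follows from the choice, and the other 3 rest on the cell with a shared barcode. Without shared barcodes the shares were 22.2% of Ibsp (2 of 9 UMIs), 10% of Dmp1 (3 of 30) and 45.5% of Bglap (5 of 11), all under 50%. Counted as E15.5 cells in place of UMIs, 2 of the 9 had at least 50% of their positive cells among the 62.

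These genes were not spread evenly among the 62 cells. Ibsp was found in 55 of them, with a median of 16 and a maximum of 150 UMIs. Sp7 was in 36, Smpd3 in 24, Phex in 22, Alpl in 17, Dmp1 in 14, Ifitm5 in 7 and Bglap in 2. Dmp1 had a maximum of 24 UMIs and Ibsp was present in 12 of the 14 Dmp1 cells. Within the 62 cells the Pearson correlation of log2 UMIs per 10000 was 0.07 between Spp1 and Ibsp and 0.29 between Spp1 and Dmp1, as a description over cells of 1 library that share its depth range. The cells were chosen on Spp1, which cuts off its range and can weaken a correlation with it. These values therefore do not show how Spp1 relates to Ibsp or Dmp1 over all cells.

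**Figure D2:**
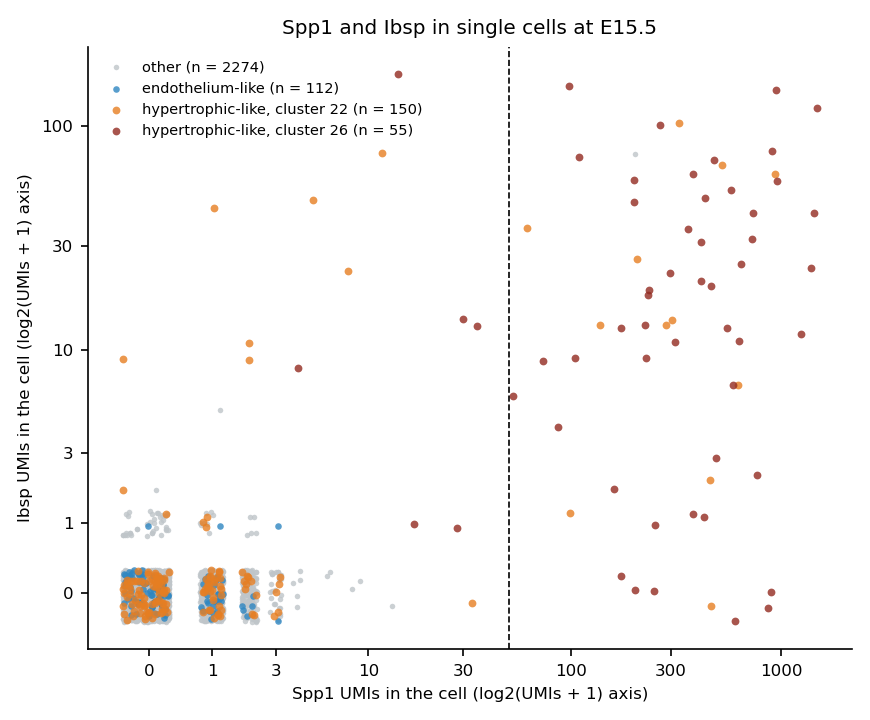
Spp1 (horizontal) and Ibsp (vertical) UMIs of each of the kept E15.5 cells, on log2(UMIs + 1) axes with a small random offset; colours give the hypertrophic-like clusters 22 and 26, endothelium-like cells and all others, and the dashed line is at 50 Spp1 UMIs. Most cells to the right of the line belong to cluster 26, and 5 cells to its left hold at least 20 Ibsp UMIs.

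Ibsp was also abundant in a few cells with little Spp1. At E15.5, 34 cells held at least 20 Ibsp UMIs, 29 of them with at least 50 Spp1 UMIs and 5 without. The 5 held 168, 77, 48, 44 and 23 Ibsp UMIs beside 14, 12, 5, 1 and 8 Spp1 UMIs in the same order. All were hypertrophic-like; the first had 148 Mmp13 UMIs, and the other 4 had 474 to 864 Col10a1 UMIs and at most 2 of Mmp13. At E13.5 the cell with most Ibsp, 63 UMIs, had 0 Spp1, 78 Col10a1 and 66 Ihh UMIs. In hypertrophic-like cells under 50 Spp1 UMIs there were 145 Ibsp and 16 Spp1 UMIs at E13.5 (161 cells), and 432 Ibsp and 262 Spp1 UMIs at E15.5 (144 cells).

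The E15.5 hypertrophic-like clusters differed in which mineralisation genes they held. The 138 cells of cluster 22 under 50 Spp1 UMIs had 1158 Smpd3 UMIs, with a UMI in 73.2% of them, 104 of Ifitm5 in 34.8% and 111 of Sp7 in 46.4%, beside 0 of Dmp1 and 12 of Mmp13. The 49 cells of cluster 26 above the limit had 63 Smpd3 UMIs in 34.7% of cells and 4 of Ifitm5 in 6.12%, while Sp7 was in 61.2%. In CPM Smpd3 was at 564.5 in the former and 91.1 in the latter. The 12 cells of cluster 22 above the limit lay between them for Smpd3 (158.5 CPM, in 6 of 12 cells) and had Mmp13 in 4 of 12, against 47 of the 49. Their Ibsp, at 2734 CPM with a median of 13.5 UMIs per cell, was close to that of the 49, at 2206 CPM with a median of 18. Alpl was in 6 of those 12 cells, 10 of the 49 and 23 of the 138. The rule on Spp1 fixed the Spp1 values of these groups, and cluster membership was drawn from genes other than the 9. Mmp13, the leading gene of cluster 26, was not left out of the clustering, so its difference between the clusters is a description only.

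At E13.5 and E18.5 the cells above the limit were few and unlike each other. The E13.5 cell, of cluster 22, held 127 Spp1, 23 Ibsp and 6 Alpl UMIs beside 212 of Col10a1. At E18.5 a macrophage-like cell held 737 Spp1 UMIs, 412 of Apoe, 10 of 10 macrophage markers and none of the other 8 genes. Another held 952 Spp1 UMIs with 124 of Mmp13, 5 of Bglap, 3 of Dmp1 and 2 of Ibsp. Its doublet score of 0.363 lay above those of the other E18.5 cells over the limit, 0.132 and 0.0384. The third is the cell with a shared barcode, with 537 Col1a1, 289 Col1a2, 340 Sparc and 68 Bglap2 UMIs and 0 of Col10a1 and Mmp13. It alone held 90 of 99 Ibsp, 90 of 120 Dmp1, 99 of 110 Bglap, 8 of 14 Phex and 12 of 59 Ifitm5 UMIs of the library. At E15.5 the cell of cluster 14 had a like profile, with 358 Col1a1, 202 Spp1, 76 Ibsp, 40 Ifitm5, 24 Dmp1 and 11 Bglap UMIs and 0 of Col10a1 and Mmp13. Leaving out, in each library, the 3% of cells with the highest doublet scores lowered the E15.5 share of Bglap in cells above the limit from 63.2% to 12.5% and of Ifitm5 from 24.9% to 3.31%. In all 4 libraries these were the only 2 cells with more than 5 Bglap UMIs.

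Detection outside the cells of at least 50 Spp1 UMIs was compared with endothelium-like cells after thinning every cell to 3000 UMIs. At E15.5, Spp1 had a UMI in 33.6% of the 2529 cells under the limit as deposited and in 13.01% (11.7 to 14.4) after thinning. Endothelium-like cells gave 31.2% (35 of 112) as deposited and 10.7% (5.66 to 17.97) thinned, at a median depth of 9020.5 UMIs against 9852 for all cells under the limit. The thinned share was 11.9% in chondrocyte-like, 12.0% in epithelium-like, 11.2% in muscle-like and 16.3% in macrophage-like cells. Over all classes but the hypertrophic it ran from 7.84% to 17.9%, inside the endothelial interval. Hypertrophic-like cells under the limit were at 20.1% (13.9 to 27.6), which overlapped it as well. Low Spp1 detection in these classes at E15.5 could not be told from that background at this depth. In CPM, 2 groups stood above the endothelium (36.4, 26.4 to 48.8), hypertrophic-like cells at 123 (109 to 139) and unnamed cluster 18 at 71.7 (56.9 to 89.1), the latter with at most 13 Spp1 UMIs in a cell. Of the 262 Spp1 UMIs of the hypertrophic-like cells, 128 lay in 6 cells of cluster 26, with at most 35 in a cell. The 138 cells of cluster 22 were at 65.3 CPM (54.7 to 77.4). The endothelium-like cells held 3 Ibsp beside 44 Spp1 UMIs, where the ratio of the 62 cells gives 2.97 Ibsp UMIs; the interval of the 3 UMIs is wide (0.619 to 8.77). Muscle-like cells held 0 Ibsp beside 75 Spp1 UMIs, where that ratio gives 5.07 and the exact interval of the count of 0 ends at 3.69. Dmp1, Alpl, Bglap and Phex had 0 in the endothelium, where the same ratio gives fewer than 1 UMI of each. Smpd3, with 21 UMIs there (13 in 1 cell), and Sp7, with 6, exceeded the 0.145 and 0.0932 UMIs that this ratio gives. The 62 cells held only 5.32% of the Smpd3 and 16.7% of the Sp7 UMIs of E15.5. The ratio thus leaves out most possible sources of their free RNA, and the excess cannot show whether endothelial cells express them.

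**Figure D3:**
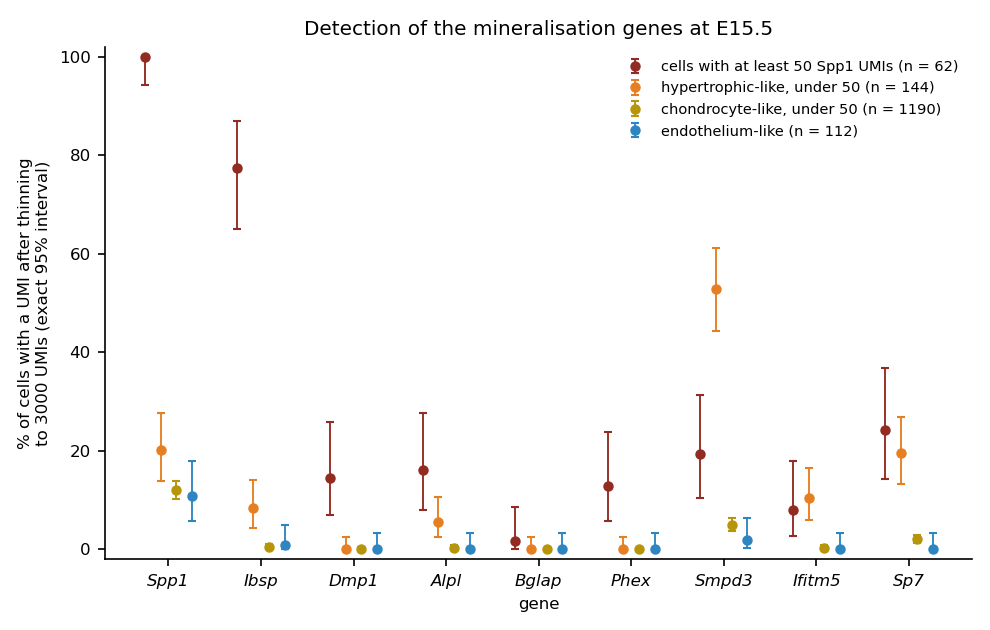
Share of E15.5 cells with a UMI of each gene after thinning each cell to 3000 UMIs, with exact 95% intervals, in the 62 cells of at least 50 Spp1 UMIs, and in hypertrophic-like, chondrocyte-like and endothelium-like cells under that limit. Spp1 in chondrocyte-like cells (11.9%) lies near the endothelial 10.7% (5.66 to 17.97). In hypertrophic-like cells it is higher, at 20.1% (13.9 to 27.6), with an interval that overlaps the endothelial one. Smpd3, Ifitm5 and Sp7 in hypertrophic-like cells lie above the endothelial intervals.

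For 3 genes, Smpd3, Ifitm5 and Sp7, the thinned interval in hypertrophic-like cells under the limit lay wholly above that of endothelium-like cells at E15.5. Smpd3 was in 52.8% (44.3 to 61.2) against 1.79% (0.22 to 6.30) of endothelium-like cells, and in 70.8% against 4.46% without thinning. Sp7 was in 19.4% (13.3 to 26.9) against 0 of 112, and Ifitm5 in 10.4% (5.95 to 16.6) against 0 of 112, which allows up to 3.24%. Alpl (5.56%, 2.43 to 10.7, against 0) and Ibsp (8.33%, 4.38 to 14.1, against 0.893%) overlapped the endothelial bound at this depth. Without thinning, Alpl was in 17.4% of the 144 cells and in 0 of 112. Dmp1, Bglap and Phex were in none of the 144 thinned cells, and endothelium-like cells also had none. Before thinning, Phex was in 7 of the 144 cells (8 UMIs), Bglap in 1 and Dmp1 in 0, against 0 of 112 for each.

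The hypertrophic-like cells under the limit numbered 161, 144 and 21 from E13.5 on, and their Smpd3 level in the same order was 656 (627 to 685), 548 (517 to 581) and 481 (405 to 568) CPM. Its level in the whole library fell by far more over these stages, from 80.8 to 11.8 CPM. The limit had taken out 1 of 162, 61 of 205 and 0 of 21 hypertrophic-like cells in stage order, so these groups are not alike. The 61 had less Smpd3 (91.1 CPM in cluster 26 and 158.5 in cluster 22). With them the E15.5 level would be lower, so no steady fall can be read from these levels. Chondrocyte-like cells held Smpd3 at 41.6, 31.8 and 7.09 CPM in the same order. Ifitm5 in hypertrophic-like cells was at 105, 48.9 (39.9 to 59.2) and 103 (69.6 to 147) CPM, against 1.75, 1.74 and 2.53 CPM in chondrocyte-like cells. Alpl was at 24.1 (18.9 to 30.2), 34.3 (26.9 to 43.1) and 144 (104 to 195) CPM, so the 21 cells of E18.5 stood above the earlier libraries. Sp7 was at 53.7, 59.2 and 79.1 (50.1 to 119) CPM in hypertrophic-like cells and at 12.0, 9.10 and 12.7 CPM in chondrocyte-like cells, the smallest ratio between these classes among the 4 genes.

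**Figure D4:**
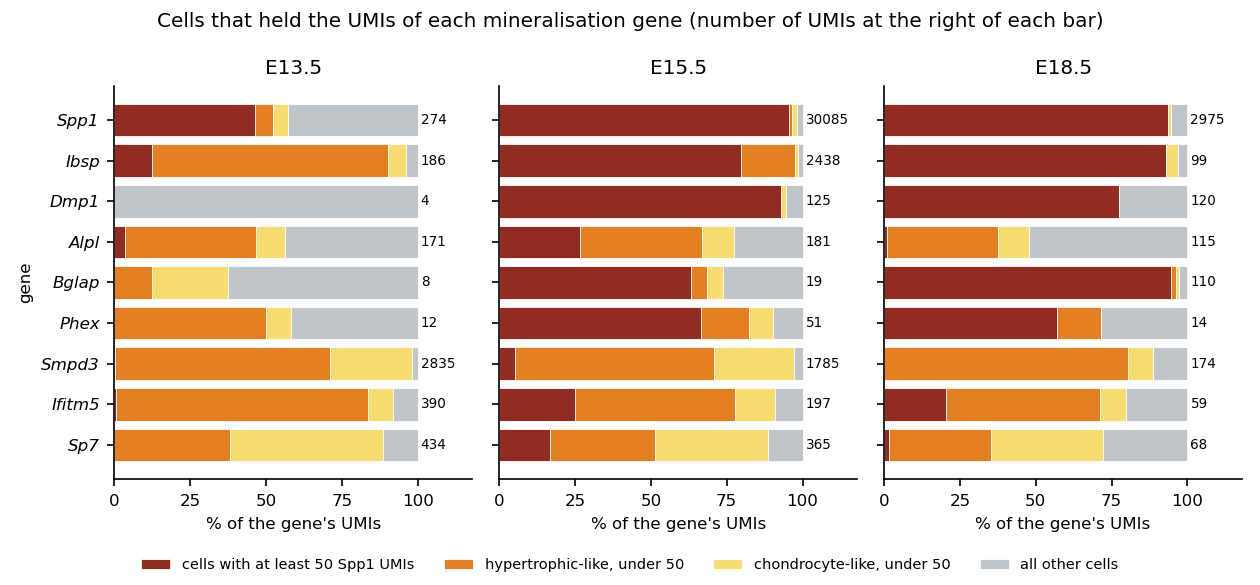
Share of each gene's UMIs (horizontal axis, %) held at E13.5, E15.5 and E18.5 by cells of at least 50 Spp1 UMIs, by hypertrophic-like and chondrocyte-like cells under that limit and by all others, with the number of UMIs at the right of each bar. At E15.5 Spp1, Ibsp and Dmp1 lie mostly in the first group, Smpd3 and Ifitm5 mostly in hypertrophic-like cells under the limit, and Sp7 is split with chondrocyte-like cells.

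Other cells held these genes at places and stages of their own. At E11.5 Spp1 was at 32.8 (27.3 to 39.0) CPM in cluster 2, an unnamed E11.5 cluster of 592 cells led by Gsc, Tbx18 and Osr2, and at 11.1 (9.37 to 13.04) CPM in 1211 limb bud mesenchyme-like cells, against 0.436 (2 UMIs in 386 cells) in the endothelium. After thinning these were 5.65%, 2.32% and 0.519% of cells, and no cell of either group held more than 20 Spp1 UMIs. Macrophage-like cells had 39 Spp1 UMIs in 39 cells at E13.5, of which 7 were positive (49.0 CPM, 34.9 to 67.0), and 43 at E18.5 (14 cells positive, 46.7 CPM), at most 24 in a cell. Alpl at E11.5 lay mostly in epithelium-like cells, with 44 of 61 UMIs (72.1%, 59.2 to 82.9; 12.1 CPM) against 1 UMI in endothelium-like cells. Dmp1 outside the limit was found in muscle-like cells, with all 4 UMIs of E13.5, 7 of 9 at E15.5 and 12 of 27 at E18.5, where pericyte and smooth muscle-like cells held the other 15; endothelium-like cells had 0 at these stages. Every Dmp1 count outside the limit was 6 UMIs or fewer per cell.

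When E13.5 was clustered by itself, 1 cluster of 47 cells took the osteoblast-like name. It was led by Aspn, Thy1 and Col1a1, with Col1a1 in 100% and Dlx5 in 48.9% of cells, but held 0 UMIs of Bglap2 and Phospho1. These cells, 1.67% of the library, held 49 of 171 Alpl UMIs (28.7%, 22.01 to 36.1), 20 of 434 Sp7 UMIs (4.61%) and 13 of 390 Ifitm5 UMIs (3.33%). Ibsp had 1 UMI there, and Dmp1, Bglap and Phex had 0, while in the clustering of all libraries the hypertrophic-like cells held 74 of the Alpl and 145 of the 186 Ibsp UMIs.

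Genes of related function were followed from 8 lists, which held 46, 50 and 52 genes with enough UMIs in the 3 steps, of which 25, 12 and 9 were called higher and 3, 0 and 16 lower. Over all genes 12.8%, 3.85% and 11.7% were called higher and 26.1%, 0.976% and 8.2% lower. The median log2 ratio of all genes was -0.55, -0.03 and -0.14 in these steps, against 0.42, 0.86 and -0.52 for phosphate and pyrophosphate genes and 2.24, 0.17 and -1.39 for hypertrophic cartilage genes. Among phosphate and pyrophosphate genes, 2 of 5 with enough UMIs were higher and 1 lower from E11.5 to E13.5, and 2 were higher from E13.5 to E15.5. Fam20c, the kinase that phosphorylates these matrix proteins, was 5.22-fold and then 3.28-fold higher, with 57.9% of its E15.5 UMIs in the 62 cells. Ank, which moves pyrophosphate out of the cell, was 2.05-fold higher in the second step, with 32.1% there, and Phospho1, a phosphatase of matrix vesicles, had 1 UMI in the 62 cells. Neither Fam20c nor Ank was called in the second step without the 62 cells. Of close relatives of Spp1 only Mepe had 20 UMIs in a pair, 30 of its 35 at E15.5 being in 3 of the 62 cells and 26 in 1; Dspp and Enam had at most 1 UMI in any library. Of 7 osteopontin receptor genes 2 were higher at E15.5 than at E13.5, Cd44 (2.31-fold) and Itgb3 (11.8-fold), and Itgb3 had 74.8% of its E15.5 UMIs in the 62 cells themselves.

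Among hypertrophic cartilage genes 6 of 7 were higher and 1, Spns2, lower from E11.5 to E13.5, 2 of 8 (Col10a1 and Mmp13) were higher to E15.5, and 5 of 8 were lower from E15.5 to E18.5, Col10a1 among them. Mineralisation inhibitors differed among themselves. Mgp, an inhibitor of cartilage calcification, was at 412, 572 and 485 CPM from E13.5 on, and Ucma, a secreted cartilage protein, was 14.3-fold higher at E18.5 than at E15.5. Osteoblast matrix genes were higher at E18.5 in 5 of 10 cases, with Col1a1 5.58-fold and Sparc 2.27-fold, and lower in 3, beside 11.7% and 8.2% of all genes. Without the cells of at least 50 Spp1 UMIs 4 were higher and 3 lower. Osteoblast regulators were called lower there in 4 of 10, with Runx2 4.02-fold lower, and higher in 0, beside 8.2% of all genes lower; 3 were lower relative to the median gene and 2 without the cells of at least 50 Spp1 UMIs. Of 7 osteoclast genes with enough UMIs 1 was higher from E13.5 to E15.5, Mmp9, and it was not called without the 62 cells. The libraries also differed in hypertrophic-like cells, with 205 at E15.5 (61 of them with at least 50 Spp1 UMIs) and 21 at E18.5, and the part of this in these differences was not tested.

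Over 53 groups of stage and cluster with at least 20 cells, the genes most like each of the 9 but Phex in log2(CPM + 1) were found by Pearson correlation. Phex was left out because it had fewer than 100 UMIs in all. The correlation is a description of groups that share libraries. Mmp13, the collagenase of terminal hypertrophic cartilage, was most like Spp1 (0.80), followed by Ibsp (0.77). Ffar4, a fatty acid receptor, came first for Ibsp (0.84) and Dmp1 (0.73). For Smpd3 the most like were Panx3 (0.90), Prkg2 (0.89) and Ihh (0.89), and for Sp7 Pcolce2 (0.87) and Panx3 (0.86). Among the 9, Smpd3 and Sp7 were the closest pair (0.85), and Smpd3 and Spp1 were far apart (0.28). By the share of E15.5 UMIs in the 62 cells, the leading genes outside the list, among those with at least 100 UMIs in that library, were Mmp13 (88.8%), Steap4 (87.3%), Ffar4 (87.1%), Cp (81.3%), Itgb3 (74.8%), Rbp4 (70.4%), Ddit4l (69.0%), Gpx3 (66.4%), AW112010 (62.9%) and Tnfsf11 (61.2%), the last being the osteoclast-forming cytokine RANKL.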

How the data were processed

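Hindlimb cells of 4 stages were profiled cell by cell in droplets (10x Chromium 3′, version 2 chemistry, per the labels' protocols). The authors deposited UMI counts for every gene and barcode; Cell Ranger and build mm10 are named, per the submitters' processing notes, which also name Seurat 2.3.4; neither the version of Cell Ranger nor its cell calling is given in the sources used here. The 10272 barcodes held whole numbers. Barcodes under 200 genes or above 10% mitochondrial UMIs were dropped; this removed 314, and Scrublet in scanpy 1.11.5 called 35 doublets (0.341%), too few to be a working call, so doublets are treated as present. In all 9923 cells were kept. Library totals behind CPM, without globin genes, were 14717227 to 35086578 UMIs. Leiden clusters (resolution 1, 2000 variable genes without the 9, 30 components, 15 neighbours, no integration) gave 29 clusters, named as "like" from at least 3 markers detected in at least 20% of cells and 2-fold above other cells. Ratios have conditional binomial, levels Poisson and shares Clopper-Pearson exact 95% intervals; the rule was tested on simulated data. Named genes beyond the 9 were list members, the 3 most similar genes of each member with at least 100 UMIs, and, among genes with at least 100 UMIs at E15.5, the 10 with the highest share in cells of at least 50 Spp1 UMIs; clusters' leading genes, Apoe and Bglap2 to describe single cells were chosen after their values were seen. The members, lists and rules were chosen with earlier results of these data known. Alternatives concerned filters, scaling, thresholds, doublets, thinning, clustering, single cells and, chosen after seeing the data, shared barcodes. Sequences were matched by symbol for 7 of the 9 genes.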

Additional observations from a re-analysis of the deposited data

Results flagged for a closer look

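Barcodes that failed the filters at E15.5 also held Spp1. The 117 removed of 2708 barcodes held 1208 Spp1 UMIs, beside 30085 in the 2591 kept cells. Of the removed barcodes 3 had at least 50 Spp1 UMIs, beside 62 kept cells, so the removed ones were not richer in Spp1. The other stages had 0 such barcodes removed, but only 1, 1 and 3 such cells kept in stage order. The 117 barcodes also held 121 Ibsp and 115 Smpd3 UMIs. At E13.5 the 71 removed barcodes held 0 Spp1 but 122 Smpd3 UMIs. With all deposited barcodes 5 of the 9 genes were called in each step, as without the removed ones.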

How the results depend on the processing

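No paired analysis was possible because each stage is 1 library. The number of the 9 genes called between stages stayed within 1.5 times its main count of 5 for each pair and alternative, except from E13.5 to E15.5 without the cells of at least 50 Spp1 UMIs (3 called, against 5); the genes on the other lists called in that step then fell from 12 to 7. Spp1, not called from E11.5 to E13.5, was called lower with at least 1000 genes and at most 5% mitochondrial UMIs, without the cell with most of its UMIs, and without the cells of at least 50 Spp1 UMIs. Counting cells in place of UMIs left 2 genes with at least 50% in those cells at E15.5, against 5; the cause was not tested. The number of genes whose detection in hypertrophic-like cells exceeded the endothelium was 3 in the main setting, 4 without thinning, 5 at the deeper thinning and 0 with endothelial cells chosen by a marker gate, which found 5 such cells at E15.5. No called ratio turned in direction under the alternatives run. Among uncalled ratios, 4 turned under at least 1 alternative: Dmp1 from E15.5 to E18.5 without shared barcodes (log2 ratio -0.88 against 0.95) and without its richest cell (-0.74), Dmp1 from E11.5 to E13.5 under 4 alternatives, Sp7 from E13.5 to E15.5 under 2, and Alpl in that step without the cells of at least 50 Spp1 UMIs (-0.03 against 0.33). Among single-gene results, 13 calls were lost and 13 gained over all alternatives; Bglap from E13.5 to E15.5 was lost in 5 and from E15.5 to E18.5 in 3. Depth limits Dmp1, Bglap and Phex, whose levels near 1 UMI after thinning show neither presence nor absence outside the richest cells.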

Other observations

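Bglap3, a near-identical copy of Bglap, lay elsewhere than Bglap at E15.5. Of its 45 UMIs, 39 (86.7%) were in 3 epithelium-like cells, 24 of them in 1 cell, and 1 was in the cells of at least 50 Spp1 UMIs, whereas Bglap had 12 of 19 there and 1 in epithelium-like cells. At E18.5 Bglap2 followed Bglap, with 68 of 82 UMIs in the cell that held 99 Bglap UMIs.

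The 2 cells rich in both Bglap and Dmp1 fell in different clusters, 14 at E15.5 and 23 at E18.5, neither of them osteoblast-like. Sost, the sclerostin gene listed here as an inhibitor, was at 29.2 CPM at E11.5 and was among the leading genes of an E11.5 epithelium-like cluster of 236 cells, and 21 of its 33 UMIs at E15.5 lay in cells of at least 50 Spp1 UMIs.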
